A study of Mus musculus with 32 samples.

Results

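Regulatory T cells (Treg) and conventional CD4 T cells (Tconv) of the spleen were compared in control mice, in 3 libraries of each. These 6 libraries are all the control spleen samples of a series of 32, which also holds liver cells and mice given carbon tetrachloride (CCl4), a liver toxin. All mice were male C57BL/6 carrying the Foxp3GFP genotype, in which green fluorescent protein reports the expression of Foxp3. Cells were purified by flow cytometry, Treg as TCRb+CD4+Foxp3+ and Tconv as TCRb+CD4+Foxp3-, so the Tconv gate holds every other alpha beta CD4 T cell of the spleen, whether naive, memory or effector. The labels do not give the age of the mice, the form of the Foxp3GFP allele, what the control mice received in place of CCl4, or whether the libraries of a group came from separate animals. The p-values below therefore measure only the spread between libraries of the same group, which may be technical. That spread was estimated over all 32 libraries of the series, in one fit of 8 groups. For comparison, 5 Treg and 5 Tconv libraries of CCl4 spleen and 3 and 3 of control liver, from mice of the same genotype, strain and sex, were used.

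Treg hold immune responses in check, and Foxp3 is the transcription factor that fixes their identity. They depend on interleukin 2 made by other T cells, which they bind through a high-affinity receptor that contains CD25, the product of Il2ra. They restrain other cells by taking away interleukin 2, by removing costimulatory ligands through CTLA-4, by activating TGF-beta, by making adenosine and by releasing inhibitory cytokines. In the spleen most Tconv are naive recirculating cells, and Treg include both resting cells and activated effector Treg.

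The libraries held between 27067104 and 60777997 estimated counts. Levels are CPM (counts scaled to library size) after TMM normalization, which corrects for the composition of a library, and are given in the order of samples 1, 2 and 3. A fold change is the log2 ratio of Treg over Tconv from edgeR's quasi-likelihood fit with its standard error (SE), and a gene is called at a Benjamini-Hochberg adjusted p under 0.05 over the 17159 genes tested. Compared between genes, levels are given as TPM, which also divides by transcript length.

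Sample 1 of each cell type stood apart from samples 2 and 3 in immediate early genes, which cells induce within minutes of stimulation or handling. Fos, a subunit of the transcription factor AP-1, was at 843, 25.2 and 22.6 CPM in Treg and at 804, 26.4 and 19.4 CPM in Tconv. Dusp1, a phosphatase of MAP kinases, was at 1320, 107 and 97.1 CPM in Treg and 878, 55.2 and 56.3 CPM in Tconv. Junb was at 3680, 634 and 584 CPM in Treg and 5120, 773 and 657 CPM in Tconv. In both cell types sample 1 was the high one, and the sets of the 2 cell types overlapped. The first principal component of the 6 libraries (54.4% of the variance) separated Treg from Tconv, and the second (14.9%) separated sample 1 from samples 2 and 3 in both. Of the 18 immediate early and heat shock genes listed, 16 were not called between Treg and Tconv in the fit that does not pair the samples. With the sample number as a block 4 fell, among them Ier2 (-0.60, adjusted p = 0.0354) and the heat shock gene Dnajb1 (-0.39, adjusted p = 0.000962). Ier2 was at 550, 239 and 215 CPM in Treg and 854, 342 and 329 CPM in Tconv, lower in Treg in each of the 3 same-numbered pairs. Dusp1 was higher in Treg in each pair, and was called in sample 1 alone (0.58, adjusted p = 0.0356), in samples 2 and 3 alone (0.87, adjusted p = 4.62e-06) and in the 6 libraries alone with the block (0.79, adjusted p = 0.000141), but not over all libraries with the block (0.69, adjusted p = 0.397). Of the 18 genes, 2 rose and 1 fell in sample 1 alone, and 2 rose and 4 fell in samples 2 and 3 alone. The heat shock genes Hspa1a (19.2, 7.82 and 11.7 CPM in Treg against 50.6, 44.4 and 53.8 in Tconv, adjusted p = 0.0042) and Hspa1b (76.2, 50.8 and 54.3 against 202, 165 and 211, adjusted p = 0.0119), fell. The 2 are near-identical copies, so how their reads divide is uncertain. Neither call held in sample 1 alone, with adjusted p of 0.402 and 0.411. The direction for Fos, Junb and Jund turned when a sample 1 of one cell type was left out, so no direction is given for them.

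**Figure D1:**
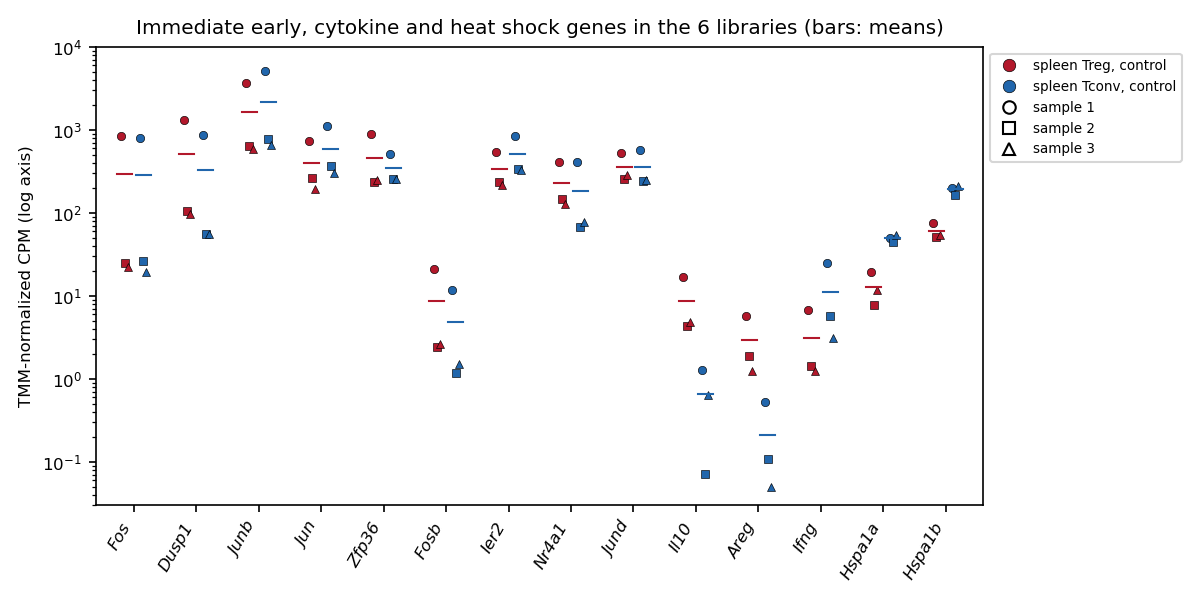
CPM on a log axis of 14 genes in each of the 6 libraries, with Treg in red, Tconv in blue, marker shapes for the samples and bars for the group means; the 1 value at 0 is drawn at 0.05. Sample 1 is the highest of its group for Fos, Dusp1 and Junb in both cell types, whereas Hspa1a and Hspa1b are lower in every Treg library than in every Tconv library.

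Of the 17159 genes tested, 3799 (22.1%) were called, 1955 (11.4%) higher and 1844 (10.7%) lower in Treg. The larger changes were mostly rises: 1124 genes (6.55%) rose and 423 (2.47%) fell by more than 2-fold, and 592 rose and 186 fell by more than 4-fold. The median log2 fold change of all genes tested was 0.00. All Treg libraries lay on one side of all Tconv libraries for 6356 genes (37.0%), which included 3649 of the 3799 called. The share called rose with abundance, from 5.71% of the genes under 1 CPM to 24.2% between 1 and 10, 29.1% between 10 and 100 and 38.5% at 100 CPM or more. Without sample 1, 1421 genes were called higher and 1064 lower, and in sample 1 alone, where each lone library was assumed to vary like the other groups, 763 and 743. In bulk RNA, fewer cells of a type and less RNA per cell cannot be told apart.

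**Figure D2:**
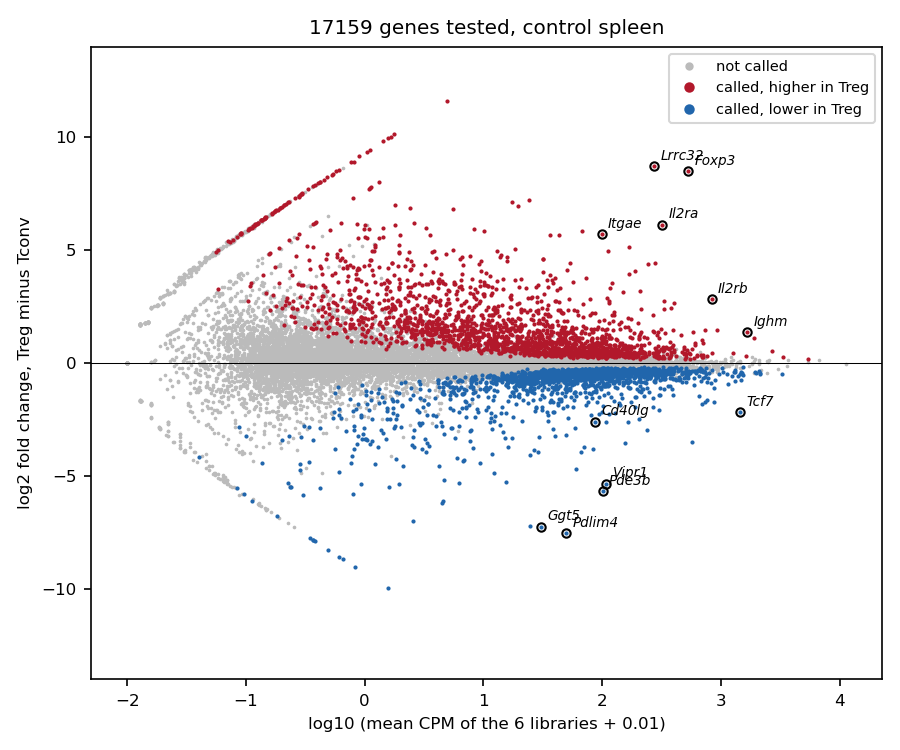
Log2 fold change of Treg over Tconv against the mean level of the 6 libraries (log10 of CPM + 0.01) for the 17159 genes tested, with called genes in red (1955 higher) and blue (1844 lower) and others in grey. Among the ringed genes Lrrc32 and Foxp3 lie highest at 8.73 and 8.50, and Pdlim4 and Ggt5 lowest at -7.55 and -7.25; the points farther out lie to their left, at lower levels.

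Foxp3 (chrX:7573644-7595245, GRCm38), the gene of the sort gate, checks the labels. It was at 927, 1180 and 1070 CPM in Treg and 2.69, 2.56 and 3.43 CPM in Tconv, so every library matched its label. Exons of Ccdc22 and Ppp1r3f overlap those of Foxp3 on the opposite strand, and the strand setting of the counting is not given in the sources used here, so reads of the overlap cannot be told apart. The T cell receptor genes Cd3e, Cd3d, Cd3g, Trbc1 and Trbc2, shared by both gates, were not called. Trac, the constant region of the receptor alpha chain, was lower in Treg at 1360, 1220 and 1270 CPM against 1960, 1560 and 1550 (-0.40, SE 0.10, adjusted p = 0.00482), a call lost in sample 1 alone (adjusted p = 0.0659) and in samples 2 and 3 alone (adjusted p = 0.0665). Cd3e was at 819, 750 and 835 CPM in Treg and 836, 735 and 774 CPM in Tconv. Cd4, the coreceptor used in both gates, was lower in Treg, at 559, 621 and 629 CPM against 996, 926 and 941 (log2 fold change -0.66, SE 0.08, adjusted p = 1.08e-07). Thy1, a surface protein of T cells, fell as well (-0.79, SE 0.16, adjusted p = 0.000264, and 0.204 in sample 1 alone).

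Among genes of at least 5 CPM whose libraries did not overlap, the 12 largest rises were Lrrc32, Foxp3, Sdc4, Atp6v0d2, Gbp2b, Cep112, Il2ra, Slc7a10, Fam160a1, Itgae, Klrg1 and Rln3. Lrrc32 (chr7:98489283-98502181, GRCm38) encodes GARP, the surface protein that holds latent TGF-beta on Treg. It was at 455, 604 and 588 CPM in Treg and 2.01, 0.974 and 0.773 CPM in Tconv (log2 fold change 8.73, SE 0.33, adjusted p = 6.41e-18). Sdc4, the heparan sulfate proteoglycan syndecan 4, was at 42.2, 51.1 and 50.3 CPM against 0.309, 0.469 and 0.234. Atp6v0d2, a subunit of the proton pump that acidifies lysosomes, was at 31.7, 26.9 and 44.0 CPM against 0.0171, 0.974 and 0.0359. Gbp2b, an interferon-inducible guanylate-binding protein, was at 32.8, 34.1 and 49.2 CPM against 0.377, 0.0361 and 0.413. In Tconv these last 3 genes had at most 27 counts in a library, and Atp6v0d2 and Gbp2b had 1 count in one of them. Itgae, the alpha E integrin CD103 that binds E-cadherin, was at 159, 193 and 232 CPM against 4.15, 5.23 and 2.07 (5.71, SE 0.38, adjusted p = 1.22e-12). Klrg1, a lectin-like receptor of effector lymphocytes, was at 62.1, 59.0 and 95 CPM against 1.87, 1.55 and 0.809 (5.69, SE 0.63, adjusted p = 3.77e-08). Rln3, the peptide hormone relaxin 3, was at 81.9, 88.3 and 87.0 CPM against 1.46, 2.92 and 1.08. Cep112 (6.81), the amino acid transporter gene Slc7a10 (5.95) and Fam160a1 (5.83) complete the group. Annotated exons of Slc7a10, Cep112 and Fam160a1 overlap those of Lrp3, Cep112os1 and Gm37240, so their counts may include reads of those genes.

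The 12 largest falls by the same rule were Pdlim4, Ggt5, Atp8b4, Pde3b, Vipr1, Lrrc75b, Lypd6b, Il1rl2, Dapl1, Abhd15, Ifitm10 and Nme4. Pdlim4 (chr11:54054928-54069014, GRCm38), an adaptor with PDZ and LIM domains that binds actin, was at 0.417, 0.473 and 0.704 CPM in Treg and 101, 90.6 and 108 CPM in Tconv (log2 fold change -7.55, SE 0.42, adjusted p = 2.8e-14). Ggt5, which converts the leukotriene C4 to D4, was at 0.0298, 0.525 and 0.559 CPM against 54.2, 56.3 and 72.1 (-7.25, SE 0.43, adjusted p = 1.6e-13). Pde3b (chr7:114415281-114539251, GRCm38), which breaks down the second messenger cyclic AMP, was at 3.81, 2.52 and 5.34 CPM against 206, 189 and 198 (-5.68, SE 0.31, adjusted p = 1.92e-14). All 3 were well detected in every Tconv library, and Pdlim4 and Ggt5 were under 1 CPM in every Treg library. Vipr1, a receptor for vasoactive intestinal peptide that signals through cyclic AMP, was at 6.04, 5.86 and 3.84 CPM against 225, 219 and 192 (-5.34, SE 0.43, adjusted p = 9.19e-11). Il1rl2, a subunit of the interleukin 36 receptor, was at 0.536, 0.998 and 0.85 CPM against 22, 22.7 and 26.3 (-4.87, SE 0.66, adjusted p = 1.35e-06). Atp8b4, a phospholipid-transporting ATPase, was at 0.417, 0.42 and 0.121 CPM against 44.5, 54.4 and 47.9. Nme4, a nucleoside diphosphate kinase of mitochondria, was at 0.417, 1.05 and 0.461 CPM against 11.9, 13.5 and 13.8. The other 5 had log2 fold changes from -5.32 (Lrrc75b) to -4.34 (Ifitm10), and exons of Abhd15 and Ifitm10 overlap those of other genes (Taok1 and Trp53i13, and Gm49369).

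All 18 genes of a Treg identity list rose, with a median log2 fold change of 3.83 against 0.00 over all genes, and their libraries did not overlap for any of the 18. Foxp3 is both in the list and the gate, so its rise follows from the sort. The other 17 were not gated on, but were listed as known Treg genes, so their rise is no independent support. Their levels summed to between 8120 and 8440 CPM in Treg and between 728 and 769 in Tconv. All 18 were also called in sample 1 alone and in samples 2 and 3 alone. Il2ra, the alpha chain of the interleukin 2 receptor, was at 636, 619 and 643 CPM against 9.60, 9.81 and 7.80 (6.13, SE 0.31, adjusted p = 4.51e-15). Ikzf2, the transcription factor Helios, was at 353, 333 and 295 CPM against 9.60, 8.37 and 9.47 (5.15, SE 0.22, adjusted p = 1.28e-16). Its relative Ikzf4, which encodes Eos, was at 88.6, 116 and 115 CPM against 7.51, 9.09 and 10.2 (3.58, SE 0.20, adjusted p = 3.02e-14). Both cofactors of Foxp3 were thus low but present in Tconv. Gpr83, a G protein-coupled receptor, was at 342, 375 and 349 CPM against 24.5, 20.3 and 18.4 (4.07, SE 0.19, adjusted p = 1.18e-15). Nrp1, neuropilin 1, a surface receptor of thymus-derived Treg, was at 318, 396 and 405 CPM against 38.8, 39.6 and 44.1 (3.19, SE 0.19, adjusted p = 1.15e-13). Izumo1r, the folate receptor family member FR4, rose from 126, 113 and 115 CPM in Tconv to 629, 645 and 649 in Treg (2.44, SE 0.19, adjusted p = 4.4e-11). In TPM, the highest of these genes in Treg were Tnfrsf4 (1030 ± 35.3, SD, n = 3) and Izumo1r (1020 ± 75.9), which did not differ beyond their spread. Tnfrsf18 (889 ± 34.8), Capg (861 ± 72.1), an actin-capping protein, Foxp3 (801 ± 173) and Il2rb (799 ± 35.3) were next, with overlapping spreads. Ctla4 (410 ± 46.2), Il2ra (283 ± 14.2), Lrrc32 (231 ± 46.2), Ikzf2 (189 ± 21.8), Gpr83 (177 ± 17.2), Nrp1 (168 ± 28.9) and Nt5e (163 ± 13.3) were lower, and Itgb8 was the lowest (8.24 ± 0.987). In Tconv the order was another: Izumo1r (186 ± 2.67 TPM), Tnfrsf18 (164 ± 3.12), Capg (122 ± 7.08) and Il2rb (109 ± 6.98) were well expressed there, Tnfrsf4 reached 48.0 ± 1.11 and Ctla4 18.7 ± 8.14, and Lrrc32 only 0.458 ± 0.225.

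**Figure D3:**
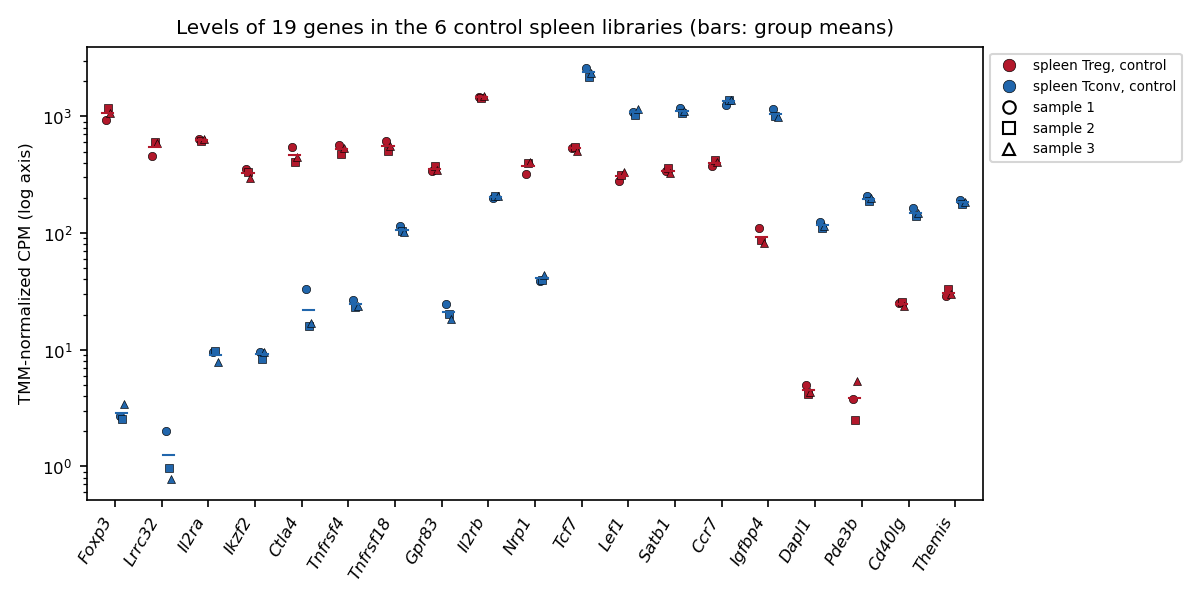
CPM on a log axis of 19 genes in the 6 libraries (Treg red, Tconv blue, bars for group means, shapes for samples). For the 10 genes on the left, from Foxp3 to Nrp1, every Treg library lies above every Tconv library; for the 9 on the right, from Tcf7 to Themis, every Treg library lies below.

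Sequence around the start sites of identity genes is shown because these genes rose together. RefSeq's GRCm38.p6 table held a promoter window, from 250 bases before to 50 bases after the start, for 13 of the 18, and the 4 of these with the smallest adjusted p are printed. Capitals mark a match to TTCNNNGAA, the core of sites for STAT factors, which transmit interleukin 2 signals. The letters TGTTTAC (forkhead factors), TGACTCA (AP-1) and TGTGGTT (RUNX factors), sought on both strands, were in none of the 4.
Tnfrsf4, chr4:156013445-156013744, plus strand: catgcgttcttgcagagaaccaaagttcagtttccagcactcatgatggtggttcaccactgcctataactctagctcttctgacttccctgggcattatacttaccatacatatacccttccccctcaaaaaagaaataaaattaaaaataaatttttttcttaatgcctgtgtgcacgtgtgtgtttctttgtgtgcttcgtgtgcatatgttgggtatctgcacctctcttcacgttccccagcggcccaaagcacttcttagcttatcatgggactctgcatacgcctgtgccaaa
Tnfrsf18, chr4:156026072-156026371, plus strand: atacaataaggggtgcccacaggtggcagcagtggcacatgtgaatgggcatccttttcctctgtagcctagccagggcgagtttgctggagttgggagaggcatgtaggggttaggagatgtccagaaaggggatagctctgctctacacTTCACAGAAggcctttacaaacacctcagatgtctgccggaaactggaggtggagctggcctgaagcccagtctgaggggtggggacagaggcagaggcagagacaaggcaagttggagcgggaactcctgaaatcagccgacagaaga
Gpr83, chr9:14859960-14860259, plus strand: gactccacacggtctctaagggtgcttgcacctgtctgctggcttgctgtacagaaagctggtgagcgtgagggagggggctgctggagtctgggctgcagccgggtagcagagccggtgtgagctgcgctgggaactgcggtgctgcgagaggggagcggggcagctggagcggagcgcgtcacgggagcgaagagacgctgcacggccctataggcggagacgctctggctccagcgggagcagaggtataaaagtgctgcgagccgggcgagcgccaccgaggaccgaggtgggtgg
Ctla4, chr1:60908775-60909074, plus strand: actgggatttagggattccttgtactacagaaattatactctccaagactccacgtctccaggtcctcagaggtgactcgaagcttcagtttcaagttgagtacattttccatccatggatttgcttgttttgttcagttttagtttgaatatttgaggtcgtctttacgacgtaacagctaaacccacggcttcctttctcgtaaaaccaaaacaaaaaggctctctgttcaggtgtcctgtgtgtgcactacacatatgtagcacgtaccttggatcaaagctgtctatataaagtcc
Of the 32851 promoters kept, 8.30% held the STAT letters, 3.65% the forkhead letters, 5.20% the AP-1 letters and 5.27% the RUNX letters. Among genes that rose by more than 2-fold, 7.03%, 3.42%, 5.32% and 4.18% of 1052 promoters held them, and among genes that fell by more than 2-fold, 6.40%, 2.13%, 4.27% and 4.03% of 422. Among all genes tested the shares were 7.2%, 2.76%, 4.04% and 3.96% of 15284 promoters.

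Suppressive mediators rose in 13 of 17 cases, against 11.4% of all genes called higher. The median log2 fold change was 3.58, 1 fell and 3 were not called. The ectoenzymes that make adenosine from ATP rose together. Entpd1 (CD39) was at 60.3, 68.6 and 74.3 CPM in Treg and 3.91, 5.09 and 4.76 in Tconv (3.89, SE 0.32, adjusted p = 1.09e-10), and Nt5e (CD73) was at 331, 355 and 382 CPM against 64.0, 61.2 and 75.3 (2.41, SE 0.16, adjusted p = 7.68e-13). Of the genes around TGF-beta, those for its surface handling rose and the cytokine itself was not called. Itgb8, the integrin subunit that releases active TGF-beta, was at 23.4, 30.2 and 26.3 CPM against 1.15, 0.866 and 1.02 (4.69, SE 0.54, adjusted p = 8.09e-08), while Tgfb1 was at 129, 98.8 and 100 CPM against 98.7, 85.6 and 87.2 (0.27, SE 0.12, adjusted p = 0.0968). Ebi3, a subunit of interleukins 27 and 35, was at 17.4, 16.0 and 18.5 CPM against 2.18, 1.59 and 1.08 (3.42, SE 0.32, adjusted p = 1.33e-09). Its partner in interleukin 35, Il12a, lay between 0 and 0.417 CPM in all 6 libraries and was not called. Penk, the precursor of enkephalin opioid peptides, was at 76.6, 54.8 and 61.5 CPM against 6.62, 3.71 and 4.51 (3.68, SE 0.43, adjusted p = 9.53e-08). Fgl2, a secreted fibrinogen-like protein, was at 49.2, 54.8 and 75.3 CPM against 4.53, 5.45 and 1.29 (4.04, SE 0.54, adjusted p = 1.14e-06).

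The cytotoxic pair split. Gzmb, the protease granzyme B, was higher in Treg at 28.9, 33.5 and 52.7 CPM against 1.83, 5.09 and 2.34 (3.72, SE 0.56, adjusted p = 8.53e-06). Prf1, the pore-forming protein that lets granzymes into target cells, was lower at 16.8, 25.1 and 21.3 CPM against 75.7, 88.7 and 74.2 (-1.91, SE 0.21, adjusted p = 5.51e-08). Il10 and Areg were low in spleen Treg and highest in sample 1. Il10, the inhibitory cytokine, was at 17.0, 4.38 and 4.91 CPM against 1.27, 0.0721 and 0.647 (3.51, SE 0.88, adjusted p = 0.00356). Its groups did not overlap, but the call was lost in sample 1 alone (3.74, adjusted p = 0.0969), in samples 2 and 3 alone (3.39, adjusted p = 0.0512) and with limma-voom. Areg, the epidermal growth factor receptor ligand amphiregulin that Treg release in tissue repair, was at 5.71, 1.89 and 1.24 CPM against 0.531, 0.108 and 0 (3.58, SE 0.62, adjusted p = 6.28e-05). Its call held in sample 1 alone (3.42, adjusted p = 0.00112) and in samples 2 and 3 alone (5.32, adjusted p = 6.3e-05). The level of Areg in Tconv sample 3 lay under 0.0558 CPM, the level of 3 counts.

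Costimulatory receptors rose in 7 of 10 cases and none fell (median log2 fold change 2.26), against 11.4% of all genes called higher. Those of the TNF receptor superfamily that Treg use to respond to inflamed tissue were the most changed. Tnfrsf4 (OX40) was at 572, 480 and 539 CPM in Treg and 26.8, 23.4 and 23.7 in Tconv (4.43, SE 0.17, adjusted p = 1.37e-17). Tnfrsf18 (GITR), its neighbour on chromosome 4, was at 617, 507 and 557 CPM against 114, 105 and 102 (2.39, SE 0.11, adjusted p = 1.18e-15). Both were high in every Treg library, and the 2 differed in how much Tconv expressed. Tnfrsf9 (4-1BB) was at 359, 278 and 310 CPM against 22.9, 15 and 23.6 (3.93, SE 0.20, adjusted p = 4.51e-15), Tnfrsf1b, the type 2 receptor for TNF, at 618, 709 and 774 against 106, 110 and 113 (2.68, SE 0.17, adjusted p = 9.06e-13). Tnfrsf8 (CD30) was at 16.2, 15.7 and 22.7 CPM against 0.737, 0.685 and 0.934 (4.51, SE 0.61, adjusted p = 1.22e-06). Icos, the inducible relative of CD28, was at 427, 427 and 450 CPM against 102, 97.1 and 97.8 (2.14, SE 0.11, adjusted p = 1.05e-14). Cd28 itself, the main costimulatory receptor of naive T cells, was not called at 290, 283 and 295 CPM against 306, 317 and 370, nor were Tnfrsf25 and Tnfrsf14. The small rise of Cd27 (0.47, SE 0.15, adjusted p = 0.0239) was lost under 6 of the 16 alternatives run.

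Coinhibitory receptors rose in 7 of 12 cases, and none fell (median log2 fold change 1.04), against 11.4% of all genes called higher. There were 4 rises in sample 1 alone and 6 in samples 2 and 3 alone. Ctla4, which strips the costimulatory ligands CD80 and CD86 from antigen-presenting cells, was at 550, 410 and 446 CPM in Treg and 33.1, 15.9 and 16.9 in Tconv (4.40, SE 0.21, adjusted p = 1.55e-15). Tigit, a receptor for CD155, was at 75.7, 67.4 and 69.1 CPM against 4.66, 6.82 and 5.21 (3.69, SE 0.31, adjusted p = 1.62e-10). Both were several fold above Tconv in each sample. Cd200 (1.10, SE 0.15, adjusted p = 1.23e-06) and Cd274, the gene for PD-L1 (0.98, SE 0.13, adjusted p = 9.91e-07), rose less. Pdcd1, the gene for PD-1, was at 96.5, 118 and 123 CPM against 51.7, 47.1 and 55.7 (1.13, SE 0.32, adjusted p = 0.0107). The calls of Pdcd1 and Havcr2 were lost only in sample 1 alone, and that of Cd5 under 5 of the 16 alternatives. Lag3 (1.38, SE 0.63, adjusted p = 0.124, and 0.0205 with the replicate block), Btla, Cd160, Cd96 and Vsir were not called.

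The receptor chains for interleukin 2 differed from each other. Il2ra rose as described, and Il2rb, the signalling chain shared with the interleukin 15 receptor, was at 1480, 1440 and 1500 CPM in Treg and 201, 206 and 209 in Tconv (2.84, SE 0.22, adjusted p = 4.4e-11). Il2rg, the chain shared by all receptors of the family, was not called at 1590, 1470 and 1480 CPM against 1410, 1400 and 1420 (0.10, SE 0.08, adjusted p = 0.443). Il7r, the receptor for the survival cytokine interleukin 7, fell to 185, 208 and 223 CPM from 452, 452 and 478 (-1.17, SE 0.15, adjusted p = 8.04e-07). Downstream, targets of STAT5 that feed back on the receptor rose. Cish was at 210, 191 and 196 CPM against 27.1, 35.0 and 32.9 (2.65, SE 0.22, adjusted p = 2.18e-10), and Socs2 at 61.5, 54.1 and 58.4 against 7.03, 8.19 and 5.73 (3.06, SE 0.30, adjusted p = 4.42e-09). Socs3 was not called at 278, 275 and 250 CPM against 294, 264 and 230. Of the signalling kinases and factors, Jak1 fell (-0.42, SE 0.09, adjusted p = 0.000782), Stat5a rose (0.44, SE 0.13, adjusted p = 0.0107, lost in sample 1 alone and without Treg sample 2), and Jak3 and Stat5b were not called. In all, 8 of the 17 genes rose and 2 fell, against 11.4% and 10.7% of all genes. Of these 10 calls, 7 were kept under every alternative run.

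Of 16 cytokines and ligands of helper T cells tested, 7 fell and 2 rose, against 10.7% and 11.4% of all genes. The other 7 were not called, and the median log2 fold change was -1.92. There were 2 falls and 2 rises in sample 1 alone (median -2.29), and in samples 2 and 3 alone 4 fell and 2 rose (median -0.88). Of the 7 falls, that of Cd40lg was kept under every alternative run. Cd40lg, the ligand by which helper cells activate B cells and dendritic cells, was at 25.3, 25.6 and 23.5 CPM in Treg and 163, 139 and 148 in Tconv (-2.60, SE 0.11, adjusted p = 1.28e-16). Il21, a cytokine of follicular helper cells, was at 0.774, 0.228 and 0.0728 CPM against 8.85, 7.61 and 7.78 (-4.56, SE 0.89, adjusted p = 0.000251, and 0.154 in sample 1 alone). Il2 was low in both, at 0, 0.0875 and 0.413 CPM against 1.70, 1.15 and 1.90 (-3.22, SE 0.85, adjusted p = 0.00531). Without sample 1 the Il2 call was lost (-2.65, adjusted p = 0.0607). Interferon gamma (Ifng) was highest in sample 1 of each cell type, at 6.69, 1.44 and 1.24 CPM against 25.0, 5.66 and 3.09, and the groups overlapped. Its call (-1.94, SE 0.67, adjusted p = 0.036) was lost in sample 1 alone (adjusted p = 0.203) and in samples 2 and 3 alone (adjusted p = 0.137). Il4 (-2.99, SE 0.79, adjusted p = 0.00542), Tnfsf8 (-1.33, SE 0.22, adjusted p = 3.31e-05) and Tnfsf14 (-1.41, SE 0.43, adjusted p = 0.0161) fell too. The calls of Il4 and Tnfsf8 were lost only in sample 1 alone, and that of Tnfsf14 under 4 alternatives. The exceptions were Lta, the cytokine lymphotoxin alpha, at 72.5, 70.8 and 62.0 CPM against 28.3, 27.7 and 31.2 (1.23, SE 0.14, adjusted p = 7.94e-08), and Tnfsf11 (RANKL), at 35.0, 31.3 and 33.2 against 17.0, 14.8 and 11.5 (1.21, SE 0.18, adjusted p = 4.92e-06). Tnf was not called at 27.7, 25.8 and 19.8 CPM against 20.5, 20.4 and 14.2. Il5, Il13, Il17a, Il17f, Il22 and Csf2 stayed under 1 CPM in all 6 libraries and were not called. Il13, like the untested Il3, was at 0 in all of them, which allows up to 0.111 CPM (3 counts) in the shallowest library.

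Among lineage and effector transcription factors, 12 of 18 rose and 5 fell, against 11.4% and 10.7% of all genes. The remaining 1 was not called, and the median log2 fold change was 1.00. Prdm1 (BLIMP-1), which drives effector Treg and represses naive genes, was at 69.1, 77.5 and 65.4 CPM in Treg and 16.8, 13.4 and 11.6 in Tconv (2.34, SE 0.24, adjusted p = 1.19e-08). Maf was at 83.3, 71.9 and 84.6 CPM against 25.6, 18.2 and 21.9 (1.86, SE 0.18, adjusted p = 2.81e-09). Irf4, needed for effector Treg, was at 28.3, 46.4 and 41.5 CPM against 8.30, 8.66 and 7.06 (2.28, SE 0.30, adjusted p = 8.32e-07). These 3 were higher in every Treg library. Ahr, the aryl hydrocarbon receptor, was at 35.3, 39.9 and 45.2 CPM against 9.89, 9.63 and 12 (1.93, SE 0.16, adjusted p = 1.63e-10), and Batf at 127, 115 and 129 against 59.5, 53.4 and 59.5 (1.11, SE 0.13, adjusted p = 1.19e-07). Nfil3 was at 86.6, 39.9 and 45.1 CPM against 22.4, 7.11 and 7.53, with sample 1 highest in each cell type (2.19, SE 0.31, adjusted p = 2.6e-06). The paired inhibitors of E proteins moved in opposite directions. Id2, the one of effector cells, was at 96.3, 44.8 and 52.5 CPM against 253, 213 and 183 (-1.75, SE 0.21, adjusted p = 1.3e-07), and Id3 was at 147, 220 and 185 against 87.4, 107 and 104 (0.89, SE 0.16, adjusted p = 8.35e-05, and 0.0843 in sample 1 alone). Tbx21, the factor of type 1 helper cells, was at 13.4, 15.6 and 16.1 CPM against 38.1, 41.1 and 35.5 (-1.34, SE 0.36, adjusted p = 0.00582), a call lost in sample 1 alone (adjusted p = 0.194) and in samples 2 and 3 alone (adjusted p = 0.0597). Runx3 fell (-0.77, SE 0.11, adjusted p = 5.87e-06). Gata3, the factor of type 2 helper cells, was at 235, 187 and 193 CPM against 152, 105 and 126 (0.68, SE 0.13, adjusted p = 0.000187, and 0.0581 in sample 1 alone). Bcl6, the factor of follicular helper cells, was not called (-0.15, 95% interval -0.60 to 0.29). Of the 17 calls, 8 were kept under every alternative. In sample 1 alone 6 rose and 3 fell, and in samples 2 and 3 alone 9 rose and 2 fell.

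Genes of naive and quiescent T cells fell in 14 of 17 cases, against 10.7% of all genes called lower, and none rose. Their median log2 fold change was -1.01. Tcf7, the factor TCF-1 of naive and memory-like T cells, was at 540, 550 and 504 CPM in Treg and 2620, 2190 and 2370 in Tconv (-2.17, SE 0.10, adjusted p = 1.18e-15). Its relative Lef1 was at 280, 315 and 331 CPM against 1080, 1020 and 1160 (-1.81, SE 0.16, adjusted p = 5.91e-10). Satb1, a chromatin organizer of T cell development, was at 338, 360 and 330 CPM against 1180, 1060 and 1120 (-1.71, SE 0.17, adjusted p = 7.45e-09). All 3 were lower in every Treg library, yet still well expressed there. Igfbp4, a binding protein for insulin-like growth factors, was at 110, 86.4 and 82.2 CPM against 1160, 1010 and 986 (-3.50, SE 0.22, adjusted p = 5.82e-13). Dapl1, of the list the gene with the largest fall, was at 5.00, 4.15 and 4.32 CPM against 125, 110 and 116 (-4.71, SE 0.29, adjusted p = 2.8e-13). Actn1, an actin cross-linking protein, fell as well (-2.25, SE 0.19, adjusted p = 2.6e-10). The homing and exit receptors fell by different amounts. Ccr7, the receptor that guides T cells into T cell zones, was at 375, 427 and 405 CPM against 1260, 1390 and 1390 (-1.74, SE 0.20, adjusted p = 8.91e-08). S1pr1, the exit receptor (-0.85, SE 0.13, adjusted p = 1.37e-05), and Klf2, the factor that drives its expression (387, 398 and 414 CPM against 601, 588 and 662, -0.63, SE 0.10, adjusted p = 3.54e-05), fell less. Foxo1 (0.05, 95% interval -0.12 to 0.22) and Ly6c1 were not called. The call of Bach2 was lost only in sample 1 alone, that of Ets1 only in samples 2 and 3 alone, and that of Foxp1 in both.

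Chemokine receptors and adhesion molecules rose in 14 of 27 cases and fell in 4, against 11.4% and 10.7% of all genes. They were not called in 9, and the median log2 fold change was 0.62. Those of inflamed and barrier tissue were among the rises. Ccr8, a receptor of tissue and tumour Treg, was at 69.4, 41.1 and 48.9 CPM in Treg and 5.42, 4.72 and 4.33 in Tconv (3.46, SE 0.28, adjusted p = 1.11e-10). Ccr6 was at 59.9, 50.7 and 49.1 CPM against 7.49, 6.35 and 9.79 (2.75, SE 0.26, adjusted p = 2.14e-09), and Gpr15, a receptor for homing to the colon, at 28.5, 30.8 and 29.4 against 3.31, 4.87 and 3.52 (2.93, SE 0.32, adjusted p = 3.19e-08). In each case all Treg libraries were above all Tconv libraries. Ccr2 was at 88.7, 93.7 and 127 CPM against 20.0, 24.9 and 17.0 (2.32, SE 0.27, adjusted p = 7.7e-08), and Ccr4 at 58.3, 79.9 and 88.7 against 14.6, 18.8 and 16.0 (2.21, SE 0.21, adjusted p = 2.81e-09). Cxcr5, which guides cells into B cell follicles, was at 107, 135 and 135 CPM against 33.3, 52.9 and 47.8 (1.49, SE 0.27, adjusted p = 0.000116). Besides Ccr7 and S1pr1, Cxcr6 and S1pr4 fell. Cxcr6, a receptor of resident and natural killer T cells, was at 7.97, 4.92 and 10.3 CPM against 62.2, 96.1 and 61.2 (-3.25, SE 0.40, adjusted p = 2.56e-07). The integrins Itga4, Itgb1, Itgal, Itgb2 and Itgb7 and the selectin ligand Selplg were not called, although Itgb7 was with the replicate block (0.27, adjusted p = 0.0238). The calls of Ccr10, S1pr4 and Cd44 were lost only in sample 1 alone, and that of Cxcr3 under 6 of the 16 alternatives.

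A list of genes known from Treg of non-lymphoid tissue shares members with the lists above. It held 14 rises and 2 falls among 16 genes, against 11.4% and 10.7% of all genes (median log2 fold change 2.79). Il1rl1, the receptor ST2 for the alarmin interleukin 33, was at 20.1, 19.8 and 29.9 CPM in Treg and 2.19, 2.06 and 2.78 in Tconv (3.29, SE 0.36, adjusted p = 3.31e-08). Pparg, a nuclear receptor of fat tissue Treg, was low at 0.982, 1.66 and 1.38 CPM against 0.206, 0 and 0.539 (2.25, SE 0.65, adjusted p = 0.0115), and its call was lost in sample 1 alone (adjusted p = 0.294) and in samples 2 and 3 alone (adjusted p = 0.0681). The falls were Id2 and Il18r1 (-0.92, SE 0.22, adjusted p = 0.00242, and 0.313 in sample 1 alone). In sample 1 alone 10 rose and 1 fell, and in samples 2 and 3 alone 12 rose and 2 fell.

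Signalling genes of the T cell receptor fell in 13 of 26 cases, against 10.7% of all genes called lower. The 1 that rose was Cd5, 12 were not called, and the median log2 fold change was -0.24. Themis, an adaptor that sets the strength of receptor signals, was at 29.1, 33.0 and 30.0 CPM in Treg and 193, 179 and 183 in Tconv (-2.59, SE 0.09, adjusted p = 5.39e-19). It was far below Tconv in all Treg libraries. Among smaller falls, Dgka, which removes diacylglycerol, had a log2 fold change of -0.80 (SE 0.09, adjusted p = 1.89e-08), and the phosphatase gene Ptpn6 of -0.72 (SE 0.12, adjusted p = 2.44e-05). Plcg1, Prkcq and Rasgrp1 fell by 0.54, 0.43 and 0.49 on the log2 scale. Lck, Zap70, Lat and Ptpn22 fell by 0.39, 0.41, 0.53 and 0.46. The call of Zap70 was lost under 3 alternatives, and those of the others only in sample 1 alone. The receptor subunits Cd3e, Cd3d, Cd3g and Cd247 and the factors Nfatc1 and Nfatc2 were not called. Of the receptor-induced genes, Nr4a1 was at 415, 148 and 127 CPM in Treg and 415, 67.4 and 77.0 in Tconv. It was not called over all samples (adjusted p = 0.686), was equal in sample 1 (log2 fold change 0.00), and was higher in Treg in samples 2 and 3 alone (0.93, adjusted p = 0.00106).

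Enzymes and receptors of cyclic AMP signalling moved both ways, with 6 of 14 higher and 4 lower, against 11.4% and 10.7% of all genes. The other 4 were not called, and the median log2 fold change was 0.40 (0.04 in sample 1 alone). The phosphodiesterases were mainly lower. Besides Pde3b, Pde7a was at 21.1, 24.7 and 19.0 CPM in Treg and 75.8, 65.8 and 65.0 in Tconv (-1.67, SE 0.14, adjusted p = 1.3e-10), Pde4d at 16.5, 9.98 and 11.8 against 47.2, 35.7 and 35.0 (-1.63, SE 0.16, adjusted p = 3.73e-09) and Pde4b at 192, 161 and 140 against 267, 260 and 237 (-0.63, SE 0.10, adjusted p = 7.58e-06). Pde4a rose from under 1 CPM to 2.32, 3.31 and 3.42 (2.43, SE 0.58, adjusted p = 0.00208, and 0.176 in sample 1 alone). Among the receptors of the list, Ptger2, a receptor for prostaglandin E2, was at 45.1, 67.9 and 56.2 CPM against 11.1, 15.9 and 13.2 (2.08, SE 0.18, adjusted p = 5.27e-10). Ptger4 (0.74, SE 0.16, adjusted p = 0.00103), Adora2a, an adenosine receptor (0.70, SE 0.19, adjusted p = 0.00603), Ptgir and Ptger3 rose as well. The rises of Ptger4 and Adora2a were lost only in sample 1 alone, and those of Ptgir and Ptger3 under 6 and 4 alternatives. In sample 1 alone 1 gene of the list rose and 4 fell, and in samples 2 and 3 alone 4 rose and 4 fell.

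Cell cycle genes rose in 14 of 18 cases, and none fell (median log2 fold change 1.57), against 11.4% of all genes called higher. Most of the genes called act in mitosis or its control. Mki67, the proliferation marker Ki-67, was at 51.9, 49.5 and 48.6 CPM in Treg and 7.99, 12.9 and 18.5 in Tconv (1.93, SE 0.33, adjusted p = 5.31e-05). Birc5, the mitotic regulator survivin, was at 32.6, 29.4 and 34.4 CPM against 7.30, 7.68 and 9.70 (1.96, SE 0.23, adjusted p = 1.63e-07). Aurkb, the kinase of chromosome segregation, was at 16.7, 22.5 and 25.8 CPM against 2.90, 6.46 and 6.22 (2.08, SE 0.34, adjusted p = 3.24e-05). The replication genes Mcm3 (0.04, 95% interval -0.32 to 0.39), Mcm5 and Pcna (0.04, 95% interval -0.21 to 0.29), and the tubulin regulator gene Stmn1, were not called. Rrm2 and Tyms, also genes of DNA synthesis, did rise (1.44 and 0.96 in samples 2 and 3 alone). The call of Tyms was lost only in sample 1 alone. In sample 1 alone 11 rose, and in samples 2 and 3 alone 13.

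Of 16 glycolysis genes 5 rose, 2 fell and 9 were not called (median log2 fold change 0.04), against 22.1% of all genes called. The rise of Gapdh was lost only in sample 1 alone, that of Tpi1 there and without Tconv sample 2, and that of Pgam1 under 6 alternatives. Transporters led the rises. Slc2a3, a glucose transporter, was at 191, 238 and 217 CPM in Treg and 66.4, 69.8 and 58.4 in Tconv (1.73, SE 0.15, adjusted p = 3.25e-10), and Slc16a3, a lactate exporter, at 12.6, 13.1 and 20.8 against 2.86, 3.14 and 4.53 (2.13, SE 0.25, adjusted p = 1.4e-07). The enzymes Eno1 (-0.52, SE 0.11, adjusted p = 0.000404) and Aldoa (-0.65, SE 0.10, adjusted p = 9.39e-06) fell, while Ldha was not called (-0.03, 95% interval -0.20 to 0.14). Of 16 genes of apoptosis and survival, 6 rose, 1 fell and 9 were not called (median 0.43), against 22.1% of all genes called. The median was 0.17 in sample 1 alone. The rises of Bid and Fas were lost only in that fit, and that of Bad under 10 of the 16 alternatives. Bcl2l1, which encodes the survival protein BCL-XL, was at 89.2, 72.3 and 79.4 CPM against 34.1, 32.5 and 26.8 (1.37, SE 0.18, adjusted p = 6.24e-07), and Pmaip1, the pro-death protein NOXA, at 25.6, 15.2 and 17.0 against 6.12, 3.35 and 3.67 (2.11, SE 0.26, adjusted p = 3.39e-07). Fasl, the ligand of the death receptor Fas, was at 3.72, 4.45 and 6.68 CPM against 24.4, 20.9 and 23.6 (-2.22, SE 0.28, adjusted p = 3.52e-07). Bcl2, Mcl1 and Bcl2l11 were not called. Of 20 interferon-induced genes 2 rose and 2 fell (1 and 1 in sample 1 alone), a share near the 22.1% of all genes called. With the replicate block Isg15 rose as well (0.59, adjusted p = 0.0384). Isg20 rose (1.22, SE 0.12, adjusted p = 8.15e-09) and Oasl2 fell (-1.70, SE 0.29, adjusted p = 4.44e-05), and the calls of Gbp2 and Irf7 were lost in sample 1 alone (adjusted p = 0.28 and 0.308).

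**Figure D4:**
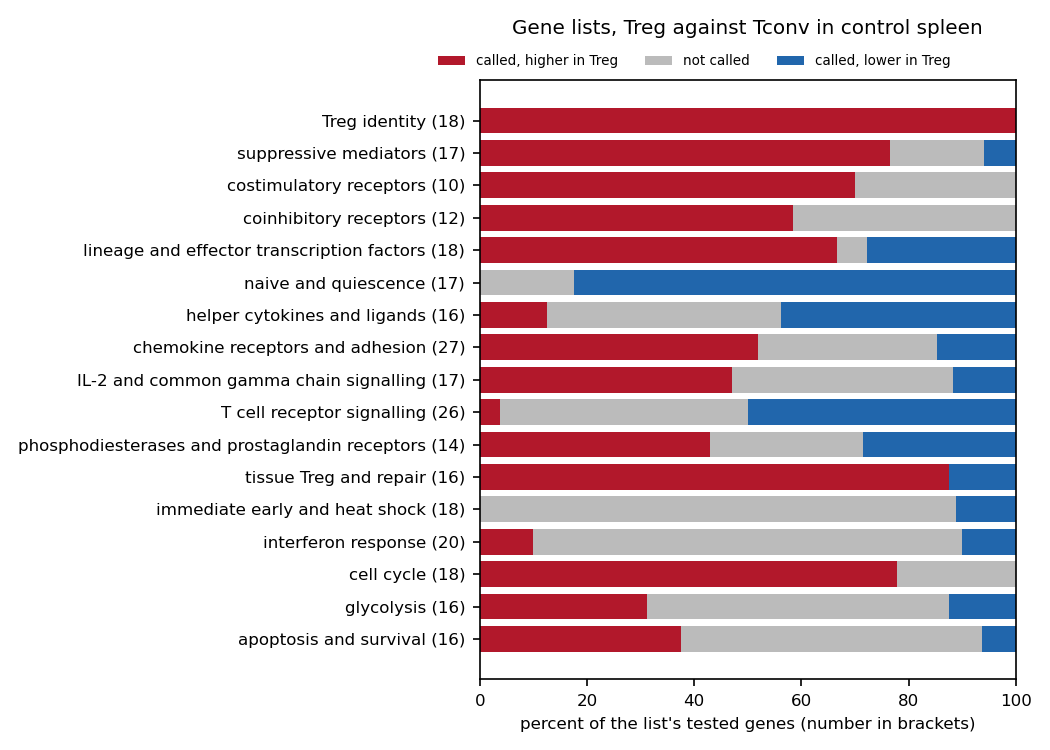
Percent of the tested genes of each of 17 lists that were called higher (red), not called (grey) or called lower (blue) in Treg; the number tested stands in brackets, and lists share members. All 18 Treg identity genes are red, 14 of 17 naive and quiescence genes are blue, and 16 of 18 immediate early and heat shock genes are grey, against 22.1% of all genes called.

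Markers of other cells that could enter the gates were also read, against 22.1% of all genes called, 11.4% higher and 10.7% lower. With 2 of 9 called the dendritic cell list was near that share, and with 1 of 14 the myeloid list was under it. Of 10 markers of natural killer and natural killer T cells, Ncr1 and Klra8 were at 0 in all 6 libraries, 5 of the 8 tested were lower in Treg and none higher (3 lower in sample 1 alone, 6 with the replicate block). Klrd1, a receptor subunit of killer cells, was at 0.238, 0.123 and 0 CPM in Treg and 10.9, 7.18 and 8.34 in Tconv (-6.21, SE 0.58, adjusted p = 1.87e-09), and Zbtb16, the factor PLZF of innate-like T cells, at 0.119, 0.14 and 0 against 3.55, 4.36 and 3.43 (-5.36, SE 0.93, adjusted p = 5.56e-05, and 0.0662 in sample 1 alone). The list summed to 27.6 to 32.7 CPM in Treg and 86.1 to 92.5 in Tconv, and it moved with the falls of Prf1, Cxcr6, Tbx21, Id2, Ifng and Fasl. Its part in those results was not tested. Of 14 B cell and plasma cell markers, 4 were higher in Treg (3 in sample 1 alone, 2 in samples 2 and 3 alone), and the list summed to 2340 to 2600 CPM against 921 to 1000. Nearly all of this was Ighm, which encodes the constant region of IgM and gives transcripts in T cells too, at 2250, 2540 and 2480 CPM against 890, 983 and 926 (1.38, SE 0.15, adjusted p = 2.38e-08). Cd79b was at 21.8, 20.4 and 18.3 CPM against 3.24, 1.59 and 0.844 (3.40, SE 0.38, adjusted p = 4.1e-08). Of the defining markers, Ms4a1 was at or under 4.14 CPM and Pax5 under 0.3 CPM in every library, and neither was called. Of 9 dendritic cell markers tested, Cd74, the invariant chain of MHC class II, was higher at 236, 179 and 177 CPM against 45.5, 20.3 and 21.7 (2.75, SE 0.24, adjusted p = 4.64e-10), and H2-Ab1 was called with overlapping groups and lost under 8 of the 16 alternatives. Flt3, Siglech, Xcr1 and Itgax of that list stayed under 1.1 CPM, and the list summed to 258 to 335 CPM against 93.1 to 117. Of 14 myeloid markers 1 was called (Itgam, 1.03, adjusted p = 0.0234), at sums of 25.0 to 30.7 CPM against 16.5 to 20.7. No CD8, gamma delta or erythroid and platelet marker was called; their sums were 19.0 to 22.2 CPM against 25.7 to 28.8, 12.9 to 16.4 against 12.2 to 17.4, and 4.97 to 9.30 against 1.60 to 26.6.

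The same comparison in the spleen of CCl4-treated mice, with 5 libraries of each cell type, called 5731 genes (33.4%). Of the 3799 genes called in control spleen, 3276 (86.2%) were called in the same direction there, which is 57.2% of the CCl4 spleen calls, and 1, the predicted gene Gm8922, in the opposite direction. The difference of the 2 fold changes was called for no gene with edgeR (0%), where 734 genes had an unadjusted p under 0.05, and for none with limma-voom. It was called for 15 genes with DESeq2, and for 1 gene, Myo6, with edgeR and the replicate block or on the libraries compared alone. Myo6, a motor protein that moves along actin, was the gene of smallest adjusted p. It was at 30.3, 20.9 and 24.3 CPM in Treg and 41.7, 37.5 and 34.2 in Tconv of control spleen, a log2 fold change of -0.59 against -2.22 in CCl4 spleen (difference 1.62, SE 0.30, adjusted p = 0.136). The adjusted p was 0.0111 with the replicate block and 0.0232 on the libraries compared alone. For Foxp3, Il2ra and Ctla4 the log2 fold changes in control and CCl4 spleen were 8.50 and 9.18, 6.13 and 6.38, and 4.40 and 4.12, and for Tcf7, Lef1 and Pde3b they were -2.17 and -2.39, -1.81 and -1.95, and -5.68 and -5.73. Summed myeloid markers were higher in CCl4 spleen Treg, at 74.4 to 132 CPM against 25.0 to 30.7 in control spleen Treg. What part this has in the difference was not tested.

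In control liver the comparison called 5917 genes (34.5%). Of the control spleen calls, 2577 (67.8%) were called in the same direction in liver, which is 43.6% of the liver calls, and 53 in the opposite direction. The difference between the tissues was called for 1122 genes (6.54%). The signed log2 fold change was larger in spleen for 795 (4.63%) and smaller for 327 (1.91%), so that larger includes weaker falls. These counts fell to 433 and 202 when only the 12 libraries compared were fitted, and to 83 and 52 with spleen sample 1 alone. Of the 18 Treg identity genes, 8 had a larger fold change in spleen and none a smaller one (9 without sample 1, 4 with sample 1 alone), among 4.63% of all genes. Il2ra had a log2 fold change of 6.13 in spleen and 3.81 in liver (difference 2.32, SE 0.36, adjusted p = 0.000172). Il2rb had 2.84 and 0.42 (difference 2.43, adjusted p = 5.93e-06), and in liver it was not called (adjusted p = 0.121). Both receptor chains for interleukin 2 thus set spleen Treg further apart from spleen Tconv. Of the 17 genes of interleukin 2 and common gamma chain signalling, 9 had a larger fold change in spleen and none a smaller one (8 without sample 1, 5 with sample 1 alone): Il2ra, Il2rb, Il4ra, Il21r, Il15ra, Socs1, Socs2, Socs3 and Cish. For Cish the values were 2.65 and 0.50 (difference 2.16, adjusted p = 3.86e-05), and for Socs2 3.06 and 0.54 (2.52, adjusted p = 0.000194). By contrast Foxp3 (8.50 and 8.82), Ikzf2 (5.15 and 5.66) and Ikzf4 (3.58 and 4.22) had adjusted p of 0.554, 0.312 and 0.159 for the difference.

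Of the 16 helper cytokines and ligands tested, 6 had a larger signed log2 fold change in spleen and none a smaller one (5 without sample 1). They were Tnf, Il4, Csf2, Lta, Cd40lg and Tnfsf11. For Cd40lg, at -2.60 in spleen and -3.34 in liver, larger means a weaker fall in spleen. The median of the list was -1.92 in spleen and -3.77 in liver. Tnfsf11, the gene of smallest adjusted p for this difference, was higher in spleen Treg and lower in liver Treg than in their Tconv. In liver it lay between 10.8 and 13.7 CPM in Treg and between 56.6 and 71.1 CPM in Tconv (log2 fold changes 1.21 and -2.47, difference 3.68, SE 0.25, adjusted p = 1.69e-10). Tnf was not called in spleen (0.41) and was lower in liver Treg (-1.66, difference 2.07, adjusted p = 0.0014). Among chemokine receptors and adhesion genes 3 of 27 had a larger fold change in spleen, against 4.63% of all genes, and 0 without sample 1. They were Ccr8 (difference 1.37, adjusted p = 0.0195), Ccr6 (1.29, adjusted p = 0.0226) and Ccr4 (0.92, adjusted p = 0.0496). A smaller one was found for 1 of 27, against 1.91% of all genes. It was Itgav, an integrin chain that takes part in TGF-beta activation, with 1.23 in spleen and 2.78 in liver (difference -1.56, adjusted p = 0.00013). Natural killer and natural killer T cell markers summed to 287 to 640 CPM in liver Tconv, against 86.1 to 92.5 in spleen Tconv and 37.4 to 50.4 in liver Treg, and gamma delta markers to 34.1 to 110 CPM in liver Tconv against 12.2 to 17.4 in spleen Tconv. The part of these cells in the differences between the tissues was not tested.

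**Figure D5:**
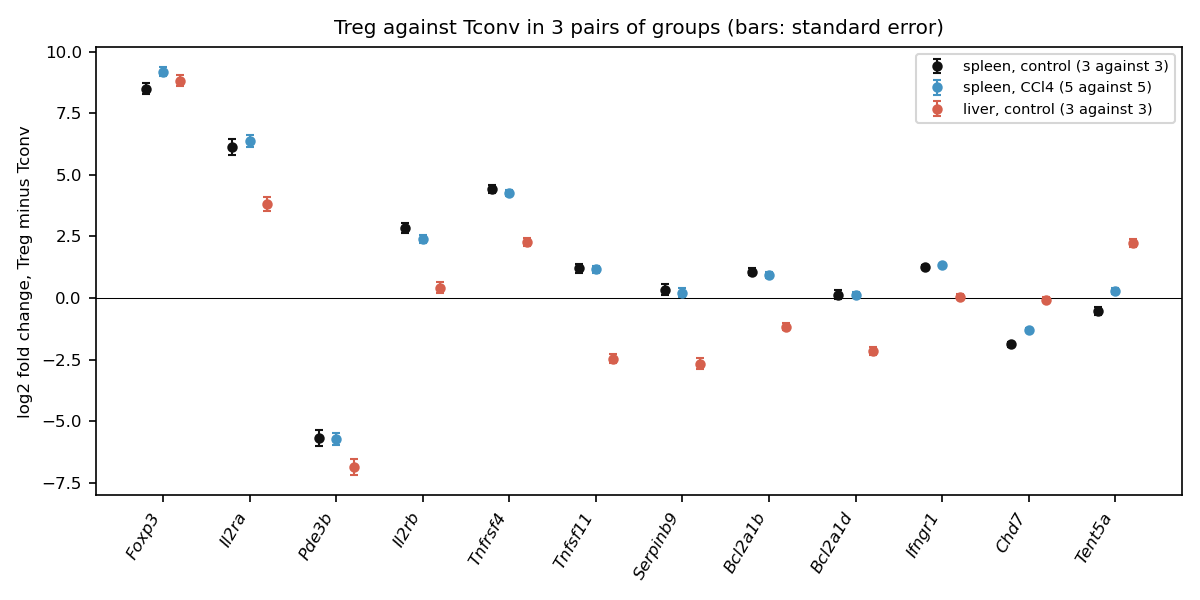
Log2 fold change of Treg over Tconv with its standard error for 12 genes in control spleen (black), CCl4 spleen (blue) and control liver (red). Control and CCl4 spleen lie close for Tnfsf11 (1.21 and 1.17) and Il2rb (2.84 and 2.40), while control liver lies at -2.47 and 0.42.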

How the data were processed

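RNA of sorted cells was turned into cDNA with the Clontech Ultra Low v4 kit and NexteraXT libraries, per the labels' protocols. Per the submitters' processing notes, the authors used bcl2fastq 2.19 and kallisto 0.44.0 and named the build GRCm38.p6 and DESeq2. Annotation release and strandedness: not given in the sources used here. The deposited tables give estimated counts per transcript, as kallisto made them for the authors and not whole numbers, per the file headers. They also give TPM, which the authors' kallisto run divided by effective transcript length, per the file headers.

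From these, estimated counts were summed to genes with GENCODE M21 names (98.5% of 118489 transcripts matched; the 1761 others, 0.808% to 0.823% of counts in the 6 libraries, were left out), rounded and fitted with edgeR 4.0.16 in R 4.3.3. A quasi-likelihood fit of all 8 groups with TMM factors (0.968 to 1.065 in the 6 libraries) and filterByExpr kept 17159 genes, left 24 residual degrees of freedom and gave a common biological coefficient of variation of 0.285. The SE is the absolute log2 fold change over the square root of F. No 2 replicates agreed within sampling noise. The samples carry the same numbers in both cell types, and same-numbered Treg and Tconv samples deviated together (r = 0.48, 0.26 and 0.21 over 9871 genes). Treg sample 2 with Tconv sample 3 (r = 0.19) and Treg sample 3 with Tconv sample 2 (r = 0.13) did so too. These values set sample 1 apart in both cell types but cannot tell how samples 2 and 3 pair. That the numbers pair the samples was therefore assumed, and the labels do not state it. On simulated data for this comparison (16745 genes, 200 changed), 84% of 2-fold and 95% of 4-fold changes were recovered, with 4.3% false calls. The changed genes averaged at least 5 CPM, all other genes had the same mean in every group, and libraries were drawn independently. These rates therefore do not cover genes of lower level, or the shift that sample 1 shows in both cell types.

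Named are the 12 largest rises and falls among called genes of at least 5 CPM with libraries apart (predicted genes, pseudogenes, ribosomal, mitochondrial, histone and receptor segment genes left out), list members by smallest adjusted p, the 8 genes of smallest adjusted p in each difference of fold changes, and a fixed set from Foxp3 to Fos; Gm8922 was chosen after its value was seen. The comparison, its 25 gene lists and these rules were chosen with earlier results of these data known. The results were recomputed with size factors of DESeq2 in the edgeR fit, without filterByExpr, over genes averaging 5 CPM or more, with DESeq2 1.42.0, with limma-voom (limma 3.58.1), with a replicate block, on the libraries compared alone, without each library, on sample 1 alone, on samples 2 and 3 alone, and with TPM for levels. The 95% intervals are the estimate plus or minus the normal quantile times the SE. Some genes of the lists are not reported here.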

Additional observations from a re-analysis of the deposited data

Results flagged for a closer look

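The Treg over Tconv fold change differed between control spleen and control liver by the test of the difference itself for the 8 genes of smallest adjusted p, and the difference of each kept its direction and its call under every alternative run. Tnfsf11 (RANKL) differed by 3.68 on the log2 scale, Serpinb9, an inhibitor of granzyme B, by 3.00 (SE 0.31, adjusted p = 3.45e-07), Tnfrsf4 by 2.14 (SE 0.22, adjusted p = 3.27e-07) and Ifngr1, a chain of the interferon gamma receptor, by 1.2 (SE 0.13, adjusted p = 1.39e-06). Bcl2a1b and Bcl2a1d, near-identical copies of a survival gene between which reads cannot be divided with certainty, differed by 2.23 and 2.29. Chd7, a chromatin remodeller, differed by -1.81 (SE 0.14, adjusted p = 1.34e-09) and Tent5a, a poly(A) polymerase, by -2.78 (SE 0.22, adjusted p = 2.1e-09).

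Behind these differences the levels were as follows. Serpinb9 was at 25.4, 30.8 and 37.0 CPM in spleen Treg, 21.4, 28.9 and 23.8 in spleen Tconv, 27.0 to 38.8 in liver Treg and 152 to 280 in liver Tconv, so that liver Tconv stood apart. Chd7 was at 56.7, 65.6 and 58.4 CPM in Treg of the spleen, at 206, 223 and 232 in its Tconv, and between 322 and 378 CPM in all 6 control liver libraries, so that spleen Treg stood apart. Tent5a was at 37.8, 42.6 and 47.6 CPM in spleen Treg, 47.8, 67.3 and 70.3 in spleen Tconv, 57.8 to 61.0 in liver Tconv and 229 to 320 in liver Treg. Ifngr1 was at 396, 408 and 434 CPM in Treg of the spleen, at 186, 157 and 173 in its Tconv, and at 1440 to 1570 CPM in both cell types of liver.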

How the results depend on the processing

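Of 354 named genes tested between Treg and Tconv of control spleen, 196 were called. Of these, 132 were called under each of the 16 alternatives run and 64 lost the call under at least 1. Another 48 genes gained a call under at least 1. Most of the 64 were lost with sample 1 alone, a fit of 1 library in each group. Samples 2 and 3 alone lost 28 calls, leaving out a single library lost 9 to 15, and the other settings lost 0 to 7. Depth limits cytokines near the floor, and 3 samples a group limit small changes. Called counts of 1955 higher and 1844 lower became 763 and 743 with sample 1 alone, and the lower count 1064 with samples 2 and 3 alone; leaving out single libraries gave 1580 to 1795 higher and 1351 to 1681 lower. With the replicate block that pairs the sample numbers they were 2021 and 1952. Among named genes the block ended the call of Bad (adjusted p = 0.0707), and it made calls of Xiap and Xcr1 (adjusted p = 0.0358 and 0.0383), of Gzma (0.0476) and of Myo6 (0.0186), beside those given in the report; it changed no other call of a named gene. The log2 fold change of Fos was -3.57 without Treg sample 1 and 3.70 without Tconv sample 1, that of Junb -1.85 and 1.19, and that of Jund -0.41 and 0.52, so each turned its direction. For control against CCl4 spleen, 0 differences became 8 larger and 7 smaller with DESeq2, 1 larger with the block, 1 with the libraries compared alone and 1 with samples 2 and 3 alone; leaving out single libraries gave 0 to 2 larger (2 without Tconv sample 1) and 0 to 1 smaller (1 without Tconv sample 2). For spleen against liver, 795 larger and 327 smaller became 433 and 202 with the libraries compared alone and 83 and 52 with spleen sample 1 alone. The smaller count was 495 over genes of at least 5 CPM, 560 with DESeq2 and 197 with samples 2 and 3 alone. Leaving out single spleen libraries gave 444 to 870 larger and 203 to 317 smaller. Fewer samples or genes enter several of these fits; beyond that, the cause was not tested.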
